A study of Mus musculus with 16 samples.

Results

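The circadian clock genes were followed in the intervertebral discs of mouse tails, in 10 genes of the 49315 in the deposited table. The 10 were chosen by name: Arntl (the gene also called Bmal1), Clock, Per1, Per2, Per3, Cry1, Cry2, Nr1d1, Nr1d2 and Dbp. Each name matched 1 row of the table, and all 10 passed the filter on low values that 24188 genes passed. Gene expression had been measured by bulk RNA sequencing in 16 mice, 1 library per mouse, each from 4 tail discs pooled after the cartilaginous endplate was cut away. Mice were wild type or carried the Adam8EQ allele of Adam8, which encodes a membrane-anchored metalloprotease, and their discs were INTACT or INJURED by the labels. There were 3 wild-type and 4 mutant mice with intact discs, and 4 wild-type and 5 mutant mice with injured discs. The title of the series names DBA, an inbred strain, as the comparison strain, and the wild-type genotype was read from the sample titles. The labels do not describe the EQ allele or the injury further, and they state no age, no interval after injury, no light cycle and no hour of collection.

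The molecular clock is a transcriptional feedback loop that runs in nearly every cell. The proteins BMAL1 and CLOCK bind E-boxes in DNA and switch on the Per and Cry genes, whose products return to the nucleus and hold BMAL1 and CLOCK back. The same pair switches on Nr1d1 and Nr1d2, which encode the repressors REV-ERB alpha and beta, and these repress Arntl through binding sites that they share with the activating ROR receptors. Dbp, Tef and Hlf encode activators of D-box sites, where the product of Nfil3 acts as a repressor. In a rhythmic tissue Arntl and Npas2 therefore peak at about the opposite time of day to Dbp, Nr1d1 and the Per genes. Disc cells are known to hold such a clock.

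Levels are given in TPM, a unit in which each library has the same total and gene length is taken into account, so that different genes can be compared within a library. A change is the injured minus the intact (or the mutant minus the wild-type) group mean of log2(TPM + 1). On this scale changes of genes with few TPM come out too small. Changes were tested with limma in a single fit over the 16 libraries. A gene is said to have risen or fallen, or is called, where its Benjamini-Hochberg adjusted p over all 24188 tested genes is under 0.05. Errors of changes are moderated standard errors of that fit.

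The promoters of 9 of the 10 genes are in the RefSeq table of promoter sequences (GRCm38.p6), in 13 windows. Those of 5 genes are shown. For 4 the window holds a motif that the loop uses, and that of Arntl holds none of those searched. Each sequence is the 250 bases before an annotated start, 5′ to 3′ on the strand of the gene. Capitals mark 3 motifs, each searched on both strands. They are the E-box CACGTG, its variant CACGTT and the D-box TTATGTAA, so a capital run may be the reverse complement of one of these.
Per1, chr11:69098699-69098948, plus strand: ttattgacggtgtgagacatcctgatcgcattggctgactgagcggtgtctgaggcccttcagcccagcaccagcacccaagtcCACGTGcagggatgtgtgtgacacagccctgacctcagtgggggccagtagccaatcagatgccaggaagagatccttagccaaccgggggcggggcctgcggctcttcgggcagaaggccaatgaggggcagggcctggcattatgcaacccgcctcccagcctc
Cry1, chr10:85185055-85185304, minus strand: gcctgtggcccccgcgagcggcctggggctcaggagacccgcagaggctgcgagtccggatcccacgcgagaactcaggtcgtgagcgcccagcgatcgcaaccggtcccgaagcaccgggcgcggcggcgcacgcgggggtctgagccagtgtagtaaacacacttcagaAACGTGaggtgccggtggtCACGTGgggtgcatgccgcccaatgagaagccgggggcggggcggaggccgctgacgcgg
Nr1d1, chr11:98775378-98775627, minus strand: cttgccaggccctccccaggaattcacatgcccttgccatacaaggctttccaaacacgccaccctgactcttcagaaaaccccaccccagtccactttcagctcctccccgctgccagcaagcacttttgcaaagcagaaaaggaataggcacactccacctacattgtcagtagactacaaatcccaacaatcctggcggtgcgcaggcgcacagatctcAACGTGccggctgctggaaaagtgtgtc
Per3, chr4:151044666-151044915, minus strand: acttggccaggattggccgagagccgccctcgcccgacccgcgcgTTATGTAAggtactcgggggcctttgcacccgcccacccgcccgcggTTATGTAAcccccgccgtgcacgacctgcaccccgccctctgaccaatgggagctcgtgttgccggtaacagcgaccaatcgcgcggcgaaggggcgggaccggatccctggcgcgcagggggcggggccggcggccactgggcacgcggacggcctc
Arntl, chr7:113207215-113207464, plus strand: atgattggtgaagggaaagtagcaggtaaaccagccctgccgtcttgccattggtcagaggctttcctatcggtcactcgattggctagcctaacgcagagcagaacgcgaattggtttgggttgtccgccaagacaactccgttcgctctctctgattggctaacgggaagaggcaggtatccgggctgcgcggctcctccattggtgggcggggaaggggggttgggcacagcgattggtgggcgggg

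The shown window of Per1 held 1 E-box, which begins 166 bases before the start, and the other window of Per1 held no motif. That of Cry1 held 1 E-box at 60 bases and 1 variant at 79 bases before the start, and that of Nr1d1 held 1 variant at 28 bases. The window of Per3 held 2 D-boxes, at 205 and 158 bases. A window of Cry2 held 1 variant, at 166 bases. In all, 2 of the 13 windows held the E-box, 3 the variant and 1 the D-box. No match shared a base with another. Over all 32851 windows of the same length in the table, the E-box was found in 6.02%, its variant in 3.85% and the D-box in 0.819%. No window of Arntl, Clock, Dbp or Nr1d2 held any of the 3. On either strand, none of the 13 windows held TAGGTCA, the form of the ROR and REV-ERB site that was searched. It was found in 2.23% of all windows, and shorter or variant forms were not searched. The windows are short and matches are given as descriptions.

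The table holds no read totals. The reads implied by the TPM values and the exon lengths ranged from 10211217 to 24876809 per library, and the lowest member value, Arntl in injured wild-type mouse 2, stood for about 132 reads. Adam8 was measured at 1.24 to 1.69 TPM in intact wild-type discs, 0.956 to 2.97 in intact mutant discs, 3.52 to 66.3 in injured wild-type discs and 16.2 to 264.1 in injured mutant discs. These values check no label, because the allele is not described as one that removes the transcript. Of the 6 markers listed for disc chondrocytes and annulus, all were present, with summed levels of 24049 to 29558 TPM in intact wild-type and 29109.7 to 32778 TPM in intact mutant discs. Of the 6 notochordal markers 5 passed the filter, and Shh did not.

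In intact wild-type discs the members lay in the order Nr1d1, Per1, Cry2, Dbp, Nr1d2, Per3, Per2, Clock, Cry1 and Arntl. Nr1d1 was highest at 855 ± 98.5 TPM (SD, n = 3) and Arntl lowest at 18.5 ± 7.53 TPM (SD, n = 3). Per1 lay at 264 ± 16.2 TPM (SD, n = 3), Cry2 at 154 ± 21.04 TPM (SD, n = 3) and Dbp at 131 ± 13.0 TPM (SD, n = 3). Neighbours whose ranges overlapped were Cry2 and Dbp, Dbp and Nr1d2, Nr1d2 and Per3, and Cry1 and Arntl. The 3 most abundant members were thus repressors of the loop or of Arntl, and the activators Clock and Arntl were among the 3 lowest members. Clock lay at 38.8 ± 1.87 TPM (SD, n = 3). Over all 16 libraries the mean of Nr1d1 stood at the 99.5th percentile of tested genes and that of Arntl at the 67.0th.

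**Figure D1:**
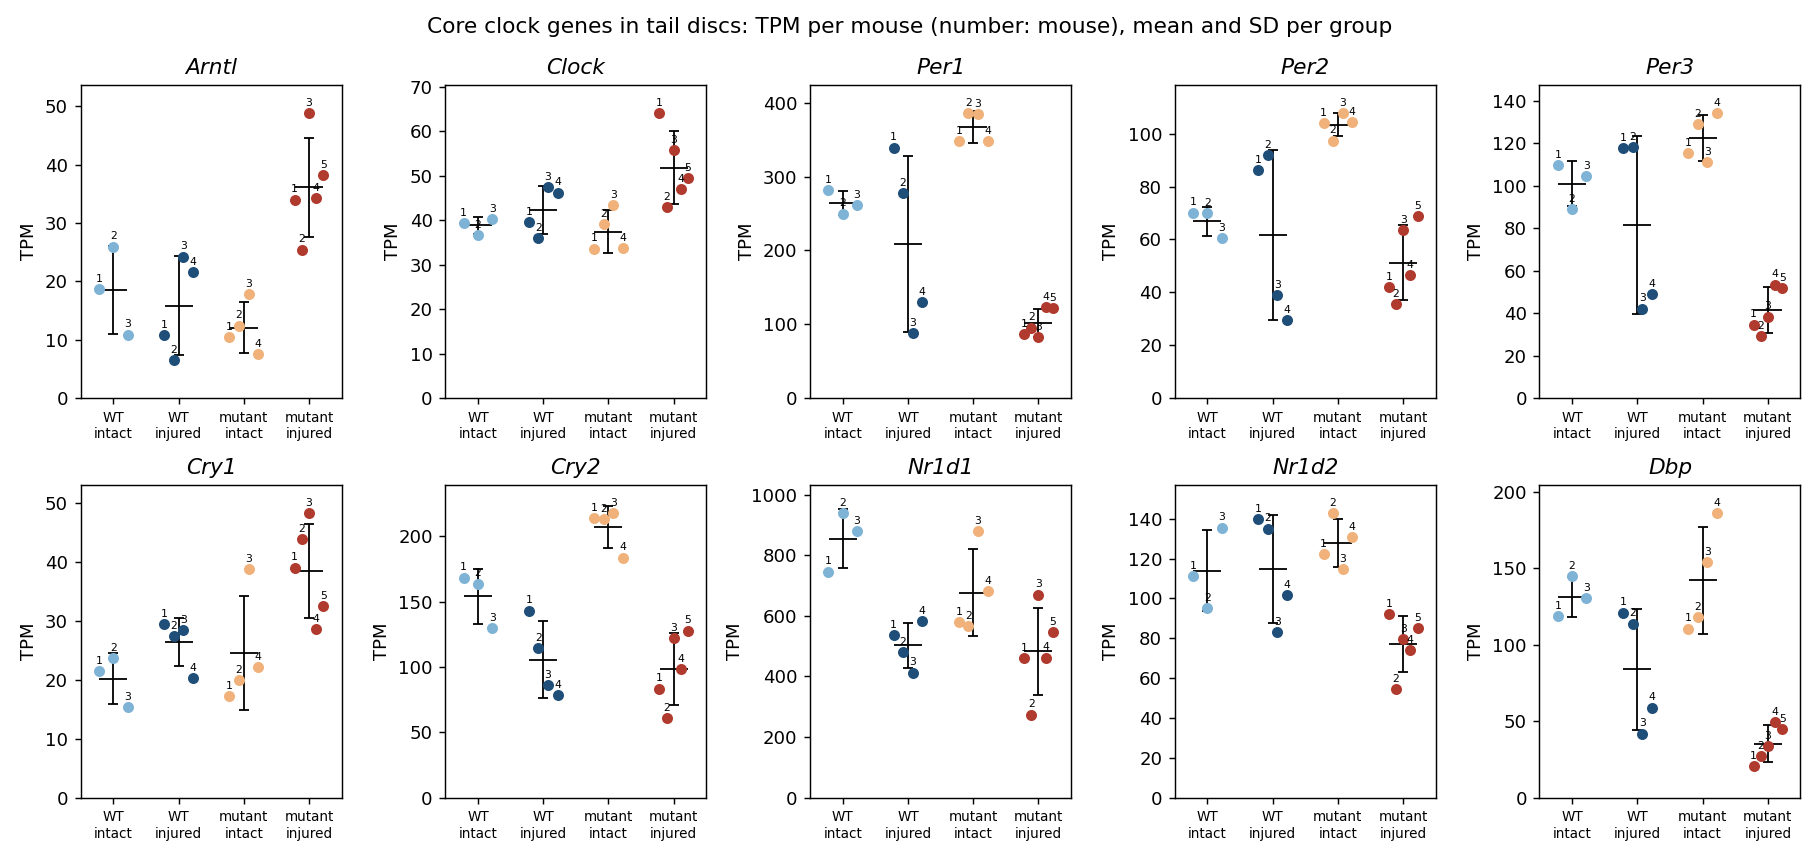
TPM of the 10 clock genes (vertical axes, from 0) in the 4 groups (horizontal axes); points are mice with their numbers, and bars are the group mean and SD. Per1, Per2, Per3, Cry2, Nr1d2 and Dbp of the 5 injured mutant mice lie below all 4 intact mutant mice, Arntl lies above, and the 4 injured wild-type mice are split.

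In mutants, the activators of the loop were higher in injured than in intact discs, and most of its repressors and the output gene Dbp were lower. Of the 10 members 9 were called, all 10 at an unadjusted p under 0.05 (42.0% of all tested genes), with 3 higher (Arntl, Clock and Cry1) and 6 lower (Per1, Per2, Per3, Cry2, Nr1d2 and Dbp) in injured discs. Over all tested genes 30.8% were called, 13.1% higher and 17.7% lower. The members were chosen with earlier results of these data known. They belong to the same loop and are not independent observations, here or in the other comparisons. The ranges of injured and intact mutant mice did not overlap for 7 members, Arntl and the 6 that fell, against 12.0% of all tested genes that were higher and 15.3% that were lower without overlap. The members' median change was -0.89, and that of all tested genes was -0.08. The labels give no hour of collection, so injury and hour cannot be told apart from these values, here or in the other comparisons. The part of the hour was not tested.

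Arntl (ENSMUSG00000055116, GRCm38 chromosome 7, 113207465 to 113314126, plus strand) encodes the partner without which the loop does not run. It lay at 10.5, 12.4, 17.8 and 7.58 TPM in intact mutant mice 1 to 4 and at 34.0, 25.5, 48.8, 34.2 and 38.2 TPM in injured mutant mice 1 to 5. Every injured mutant mouse was above every intact one. The rise was 1.53 ± 0.35 (SE, adjusted p 0.0054 by limma).

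Clock, the other protein of the activator pair, rose by less. It averaged 37.5 ± 4.73 TPM (SD, n = 4) in intact and 51.8 ± 8.24 TPM (SD, n = 5) in injured mutant discs, and the rise was 0.45 ± 0.12 (SE, adjusted p 0.0129 by limma). Its groups overlapped, with injured mouse 2 at 42.9 TPM under intact mouse 3 at 43.4 TPM. Npas2, a relative of Clock that can take its place beside BMAL1, is no member but was listed among the other loop genes. It rose by 2.00 ± 0.40 (SE, adjusted p 0.00259 by limma), with an average of 8.64 ± 2.93 TPM (SD, n = 4) in intact and 37.6 ± 11.2 TPM (SD, n = 5) in injured mutants.

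Per1 (ENSMUSG00000020893, GRCm38 chromosome 11, 69095217 to 69109960, plus strand) is a Period gene that is also induced quickly by light, cAMP and glucocorticoid signals. It lay at 348, 385, 385 and 348 TPM in intact mutant mice 1 to 4. In injured mutant mice 1 to 5 it lay at 86.1, 95.2, 82.7, 123 and 122 TPM. The groups were far apart, with the lowest intact mouse at 348 TPM and the highest injured one at 123 TPM. Per1 fell by 1.86 ± 0.30 (SE, adjusted p 0.000932 by limma).

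Per3 (ENSMUSG00000028957, GRCm38 chromosome 4, 151003652 to 151044665, minus strand) lay at 115, 129, 111 and 134 TPM in intact mutant mice 1 to 4 and at 34.6, 29.1, 38.4, 53.4 and 51.9 TPM in injured mutant mice 1 to 5. No injured mouse reached an intact one, and Per3 fell by 1.57 ± 0.28 (SE, adjusted p 0.00159 by limma). Per2, a core repressor whose product carries CRY proteins to the nucleus, averaged 103 ± 4.34 TPM (SD, n = 4) in intact and 51.3 ± 14.2 TPM (SD, n = 5) in injured mutants, without overlap, and fell by 1.04 ± 0.29 (SE, adjusted p 0.0143 by limma). Among the 3 Period genes Per2 had the smallest change.

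The Cryptochrome genes, which encode the repressors that bind BMAL1 and CLOCK directly, went opposite ways. Cry2 lay at 214, 213, 218 and 184 TPM in intact mutant mice 1 to 4 and at 83.6, 61.0, 122, 98.2 and 128 TPM in injured mutant mice 1 to 5, without overlap, and fell by 1.11 ± 0.21 (SE, adjusted p 0.00193 by limma). Cry1 averaged 24.5 ± 9.70 TPM (SD, n = 4) in intact and 38.5 ± 8.04 TPM (SD, n = 5) in injured mutants and rose by 0.67 ± 0.22 (SE, adjusted p 0.0305 by limma). Its groups overlapped, because intact mouse 3 reached 38.8 TPM. The call of Cry1 was also the least firm, with an adjusted p over 0.05 without any one of intact mutant mice 1, 2 or 4 or injured mutant mice 1, 2 or 3 (limma adjusted p 0.0562 to 0.102). Within a library the ratio of Cry2 to Cry1 was 12.4, 10.7, 5.62 and 8.29 in intact mutant mice and 2.14, 1.39, 2.52, 3.43 and 3.93 in injured ones.

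Of the members that were lower after injury, the REV-ERB genes changed least. Nr1d2 averaged 128 ± 12.0 TPM (SD, n = 4) in intact and 77.0 ± 14.1 TPM (SD, n = 5) in injured mutants, without overlap, and fell by 0.74 ± 0.17 (SE, adjusted p 0.00601 by limma). Nr1d1 was the only member not called. It lay at 579.8, 567, 879 and 681 TPM in intact mutant mice 1 to 4 and at 461, 275, 669.8, 462 and 546 TPM in injured mutant mice 1 to 5. Injured mouse 3 lay within the intact range, and the change was -0.52 ± 0.22 (SE, adjusted p 0.0788 by limma), with a 95% interval of -0.98 to -0.06. Without that mouse it was -0.65 (limma adjusted p 0.0332).

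Dbp (ENSMUSG00000059824, GRCm38 chromosome 7, 45705088 to 45710203, plus strand), the D-box activator that is often read as a direct output of BMAL1 and CLOCK, had the largest change of the 10. It lay at 111, 118, 154 and 186 TPM in intact mutant mice 1 to 4 and at 20.8, 27.2, 34.0, 49.7 and 44.9 TPM in injured mutant mice 1 to 5. Every injured mouse was under 50 TPM and every intact one above 110 TPM. Dbp fell by 2.01 ± 0.31 (SE, adjusted p 0.000756 by limma).

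Because both genes are read in the same library, the ratio of Dbp to Arntl does not depend on scaling between libraries. It was 10.5, 9.50, 8.64 and 24.5 in intact mutant mice 1 to 4 and 0.612, 1.07, 0.696, 1.45 and 1.17 in injured mutant mice 1 to 5. In intact wild-type mice 1 to 3 it was 6.36, 5.59 and 12.0. The ratio is built from members already described and was not tested.

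**Figure D2:**
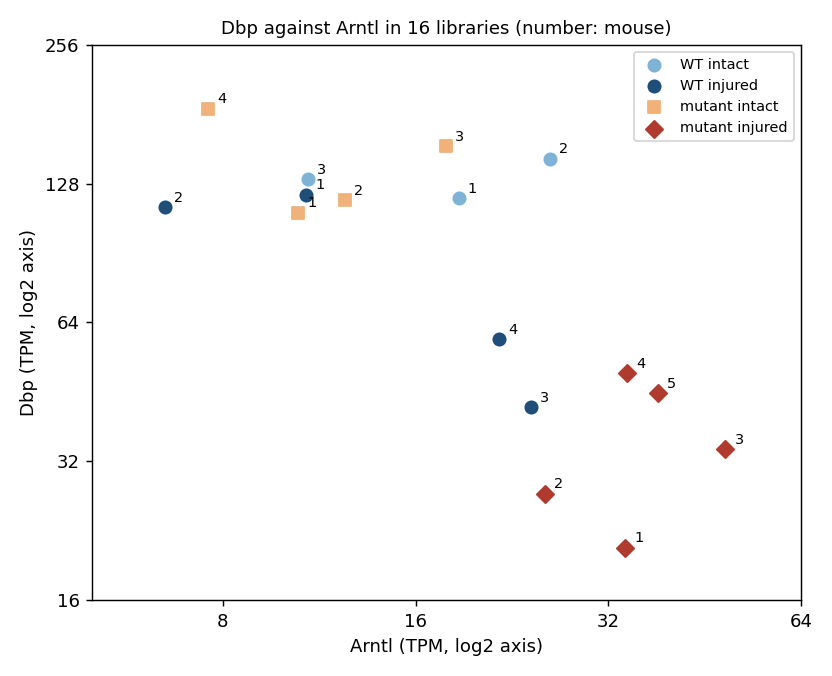
Dbp against Arntl in each library (TPM, both axes on a log2 scale); symbols are groups and numbers are mice. The 5 injured mutant mice lie at high Arntl and low Dbp, the 7 intact mice at Dbp above 110 TPM, and injured wild-type mice 3 and 4 at Dbp of 42.0 and 58.9 TPM with Arntl of 24.2 and 21.6 TPM.

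The exons of some members overlap those of a gene on the other strand, and the use of strand in counting is not given in the sources used here. The overlap with Sphk2 covers 18.0% of the exon length of Dbp, that with Thra 8.55% of Nr1d1 and that with D930015M05Rik 4.67% of Cry2. If strand was not used, reads from those stretches cannot be assigned to either gene. The values of these 3 members are then uncertain by an amount that was not estimated. For Arntl the overlap, with Gm45355, was 33 bases.

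The names of the mutant libraries begin with A8 (intact mice 1 and 2, injured mice 1 and 2) or with M (intact mice 3 and 4, injured mice 3, 4 and 5), and the labels do not say what the prefix means. The M libraries carry neighbouring numbers and are the one such run that holds both intact and injured mice. In the A8 libraries run and treatment cannot be told apart. Within the M libraries 7 members were lower and 2 higher in every injured mouse than in every intact one, and Cry1 overlapped. Of all tested genes 27.7% were lower and 20.6% higher without overlap there. Within the A8 libraries 7 members were lower and 3 higher without overlap, where 34.0% of all tested genes were lower and 28.0% higher. Fitted with the M mutants alone, Dbp changed by -1.97 (limma adjusted p 0.0316), Per1 by -1.76 (0.0669) and Arntl by 1.69 (0.1). The count of members called was then 1, and with the A8 mutants alone it was 5, with fewer mice in each fit. Of all 24188 tested genes 725 were called with the M and 3583 with the A8 mutants alone, against 7438 with all mutants. Cry1 changed by 0.27 in the M and 1.12 in the A8 mutants.

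The wider loop was described from lists of known clock genes. Of 9 other loop genes that were tested and are reported here, 8 were called in injured mutants, 4 higher and 4 lower, with a median change of -0.01. Among all tested genes the shares were 30.8% called, 13.1% higher and 17.7% lower. Rorb did not pass the filter, and Rora, an activator of Arntl, was not called, at -0.01 ± 0.14 (SE, adjusted p 0.954 by limma). The relatives of Dbp fell with it, Tef by 1.43 ± 0.24 (SE, adjusted p 0.00106 by limma) and Hlf by 2.42 ± 0.50 (SE, adjusted p 0.00337 by limma).

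Nfil3, the repressor at D-boxes, rose by 2.17 ± 0.19 (SE, adjusted p 7.12e-05 by limma). It lay at 9.58, 9.78, 9.19 and 6.42 TPM in intact mutant mice 1 to 4 and at 44.0, 57.9, 45.3, 33.2 and 35.0 TPM in injured mutant mice 1 to 5, so every injured mouse was far above every intact one. Ciart, a repressor of the loop and an E-box target, fell by 1.50 ± 0.38 (SE, adjusted p 0.00984 by limma). The paralogues Bhlhe40 and Bhlhe41, repressors that compete at E-boxes, went opposite ways, with Bhlhe40 higher by 0.75 ± 0.19 (SE, adjusted p 0.0104 by limma) and Bhlhe41 changed by -1.19 ± 0.33 (SE, adjusted p 0.0133 by limma). Timeless, best known in mammals for its part in DNA replication, rose by 0.86 ± 0.24 (SE, adjusted p 0.0156 by limma) at levels of 2.7 TPM or below in mutants.

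**Figure D3:**
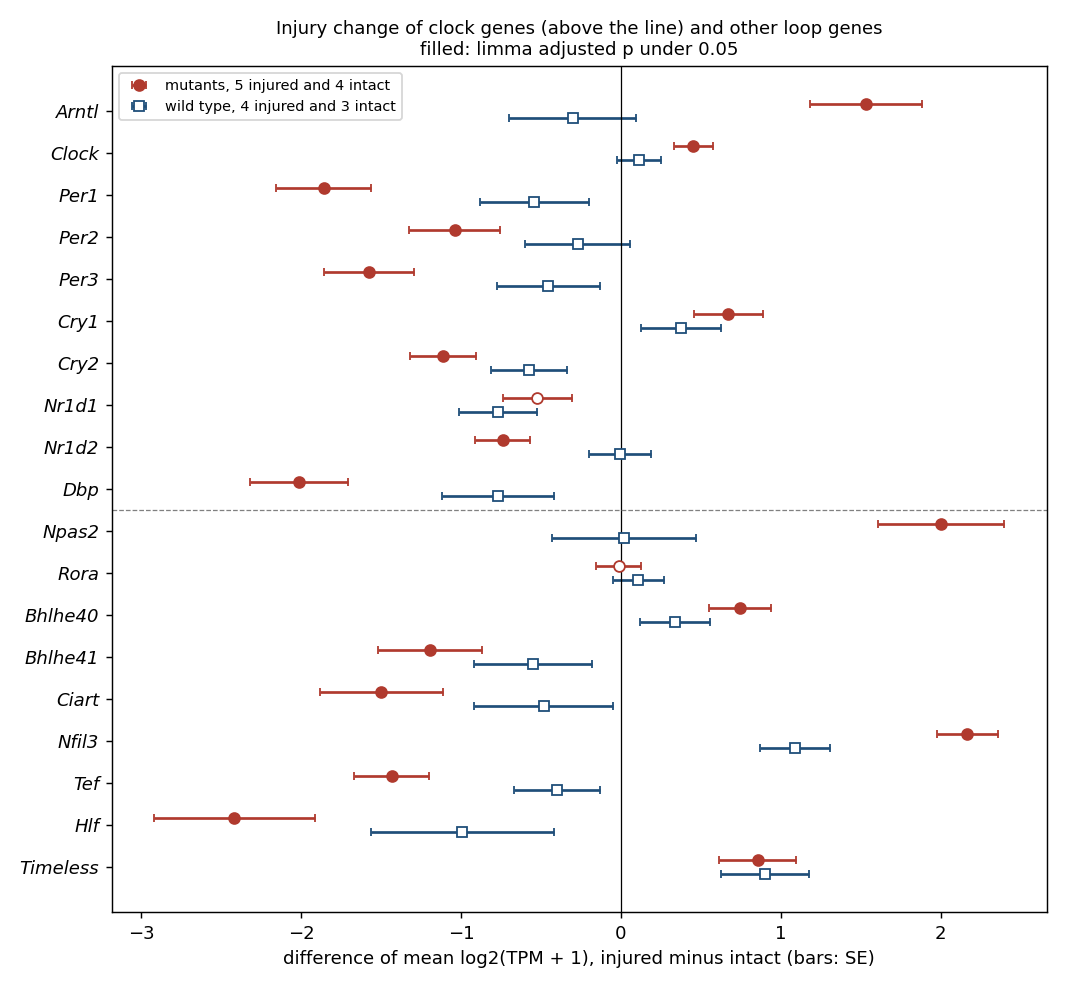
Change with injury (horizontal axis, difference of mean log2(TPM + 1), bars are SE) of the 10 clock genes, above the dashed line, and 9 other loop genes, below it, in mutants (circles) and in the wild type (squares); filled symbols have a limma adjusted p under 0.05. In mutants 9 of 10 clock genes and 8 of 9 other loop genes are filled (30.8% of all tested genes were called), and in the wild type none is (0.116%).

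Clock proteins are marked for decay by kinases and ubiquitin ligases. Of 9 tested kinase, ubiquitin ligase and deubiquitinase genes 0 were higher and 3 lower, with a median change of -0.05. The share called was near the 30.8% of all tested genes. The kinases Csnk1d and Csnk1e, which phosphorylate PER proteins, changed by 0.04 ± 0.09 (SE, adjusted p 0.795 by limma) and -0.05 ± 0.13 (SE, adjusted p 0.777 by limma). Fbxl21, a ligase of CRY proteins, fell by 1.03 ± 0.18 (SE, adjusted p 0.00158 by limma). Btrc, a ligase of PER proteins, fell by 0.45 ± 0.10 (SE, adjusted p 0.00475 by limma), and Usp2, a rhythmic deubiquitinase, by 0.50 ± 0.15 (SE, adjusted p 0.0239 by limma).

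Of 9 known output genes, 6 of them also in the list of other loop genes and 1 in that of the enzymes, 2 were higher and 6 lower, with a median of -0.95. The shares of all tested genes were 13.1% higher and 17.7% lower. Nampt, which makes a precursor of NAD, fell by 0.95 ± 0.18 (SE, adjusted p 0.00205 by limma), and Wee1, a brake on entry to mitosis, was not called, at -0.18 ± 0.24 (SE, adjusted p 0.592 by limma). Genes induced by glucocorticoids, a cue that also induces Per1, gave no single direction. Of 8, 2 were higher, 3 lower and 3 not called, with a median of -0.35, where 13.1% of all tested genes were higher and 17.7% lower. Errfi1 rose by 3.64 ± 0.53 and Sgk1 by 1.04 ± 0.27, while Zbtb16 fell by 1.69 ± 0.19, Tsc22d3 by 0.85 ± 0.24 and Klf9 by 0.69 ± 0.16 (SE). Among those not called was Fkbp5 at -0.02 ± 0.19 (SE, adjusted p 0.946 by limma).

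Markers of other cells moved in the same comparison, where 13.1% of all tested genes were called higher and 17.7% lower. Of 7 macrophage markers 6 were called higher, with summed levels of 129 to 215 TPM in intact and 737 to 7406 TPM in injured mutant discs. Of 7 tested neutrophil markers 3 were higher, and the defining marker Ly6g was at 0 in all intact libraries and reached 1.56 TPM in injured mutants. Of 5 tested notochordal markers 3 were lower, with sums of 3329 to 5502 TPM in intact and 553 to 3345 TPM in injured mutants, of 6 chondrocyte and annulus markers 2 were lower, with sums of 5101 to 16889 TPM in injured mutants, and all 3 tendon markers were lower. Of 5 endothelial markers 0 were called, but their sums, 2.12 to 8.69 TPM in intact and 9.38 to 61.7 TPM in injured mutants, did not overlap. Nor did those mice for Cdh5, Kdr and Tek, where 12.0% of all tested genes were higher without overlap. Of the 4 keratinocyte markers Krt5 and Krt14 did not pass the filter, Krt1 fell by 0.69 ± 0.21 (SE, adjusted p 0.0227 by limma) and Krt10 was not called, at -0.53 ± 0.22 (SE, adjusted p 0.0825 by limma). The part of these markers in the clock result was not tested, and in bulk tissue fewer cells of a type and less RNA per cell cannot be told apart. None of 9 skeletal muscle markers was called. With the mean of the whole muscle list as a covariate 9 members were again called, 3 higher and 6 lower, and 7767 of all tested genes. Without injured mutant mouse 2, which had the highest macrophage sum, 8 members were called, 2 higher and 6 lower, and 6637 of all tested genes. The other injured mutants also had macrophage sums above every intact one, so neither fit separates the clock values from the changes of the other markers.

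In the wild type 0 of the 10 members were called with injury by limma, where 0.116% of all tested genes were called. At an unadjusted p under 0.05 there were 3 members (Nr1d1, Cry2 and Dbp), against 17.2% of all tested genes. The members' median change was -0.38, and that of all tested genes 0.01. The injured wild-type mice were spread widely. Injured and intact wild-type libraries share no run of library numbers, so injury and run cannot be told apart there.

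Per1 lay at 282, 249.7 and 262 TPM in intact wild-type mice 1 to 3 and at 339, 278, 87.9 and 129.8 TPM in injured wild-type mice 1 to 4. Injured mice 1 and 2 were within or above the intact range and mice 3 and 4 far under it, and the change was -0.54 ± 0.34 (SE, adjusted p 0.414 by limma), with a 95% interval of -1.26 to 0.18. Dbp lay at 119, 145 and 131 TPM in intact and 121, 114, 42.0 and 58.9 TPM in injured wild-type mice. Mouse 1 lay within the intact range, mouse 2 just under it and mice 3 and 4 far under it, and its change was -0.77 ± 0.35 (SE, adjusted p 0.281 by limma), with a 95% interval of -1.51 to -0.02.

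Per3 lay at 109.5, 88.9 and 104 TPM in intact and 118, 118, 42.1 and 48.8 TPM in injured wild-type mice, with mice in order. Per2 lay at 70.1, 69.9 and 60.4 TPM in intact and 86.4, 92.0, 39.0 and 29.4 TPM in injured wild-type mice. In both genes injured mice 1 and 2 were above every intact wild-type mouse and mice 3 and 4 under every one. Their changes were -0.45 ± 0.32 (SE, adjusted p 0.472 by limma) for Per3 and -0.27 ± 0.33 (SE, adjusted p 0.688 by limma) for Per2.

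Arntl lay at 18.7, 25.9 and 10.9 TPM in intact and 10.8, 6.50, 24.2 and 21.6 TPM in injured wild-type mice, a change of -0.30 ± 0.40 (SE, adjusted p 0.718 by limma). Injured mice 3 and 4 were above mice 1 and 2 but within the intact range. The ratio of Dbp to Arntl in injured wild-type mice 1 to 4 was 11.2, 17.5, 1.73 and 2.73. Mice 3 and 4 were under every intact mouse of either genotype in this ratio and above every injured mutant mouse.

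Cry2 lay at 168, 164 and 129.9 TPM in intact and 143, 114, 86.0 and 78.6 TPM in injured wild-type mice, a change of -0.57 ± 0.24 (SE, adjusted p 0.25 by limma). Nr1d1 lay at 746, 939 and 879 TPM in intact and 537, 479.5, 413 and 583 TPM in injured wild-type mice. It was the one member whose wild-type groups did not overlap (6.34% of all tested genes were lower without overlap), and here mice 1 and 2 were low as well, with a change of -0.77 ± 0.24 (SE, adjusted p 0.169 by limma). Clock, Cry1 and Nr1d2 changed by 0.11 ± 0.14 (SE, adjusted p 0.691 by limma), 0.38 ± 0.25 (SE, adjusted p 0.439 by limma) and -0.0037 ± 0.19 (SE, adjusted p 0.996 by limma). For Nr1d2 the sign depended on the processing, at -0.13 to 0.14 when single mice were left out.

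Of the 9 other loop genes 0 were called in the wild type and 2 had an unadjusted p under 0.05, Nfil3 and Timeless. Among all tested genes these shares were 0.116% and 17.2%. Nfil3 lay at 7.71, 8.69 and 10.5 TPM in intact and 14.9, 18.8, 27.1 and 21.4 TPM in injured wild-type mice, with every injured mouse above every intact one, and its change was 1.09 ± 0.22 (SE, adjusted p 0.0781 by limma). Hlf lay at 67.9, 59.9 and 71.5 TPM in intact and 63.1, 74.4, 13.3 and 17.9 TPM in injured wild-type mice, again with mice 3 and 4 low, and its change was -0.99 ± 0.57 (SE, adjusted p 0.375 by limma). The names of injured wild-type libraries 1 and 2 carry neighbouring numbers, and those of 3 and 4 another such run. The summed macrophage markers in these mice were 223, 376, 3734 and 2380.1 TPM, against 141 to 169 TPM in intact wild-type discs, so the 2 mice with low Per and Dbp were those with the higher sums. The part of this in the clock values was not tested.

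**Figure D4:**
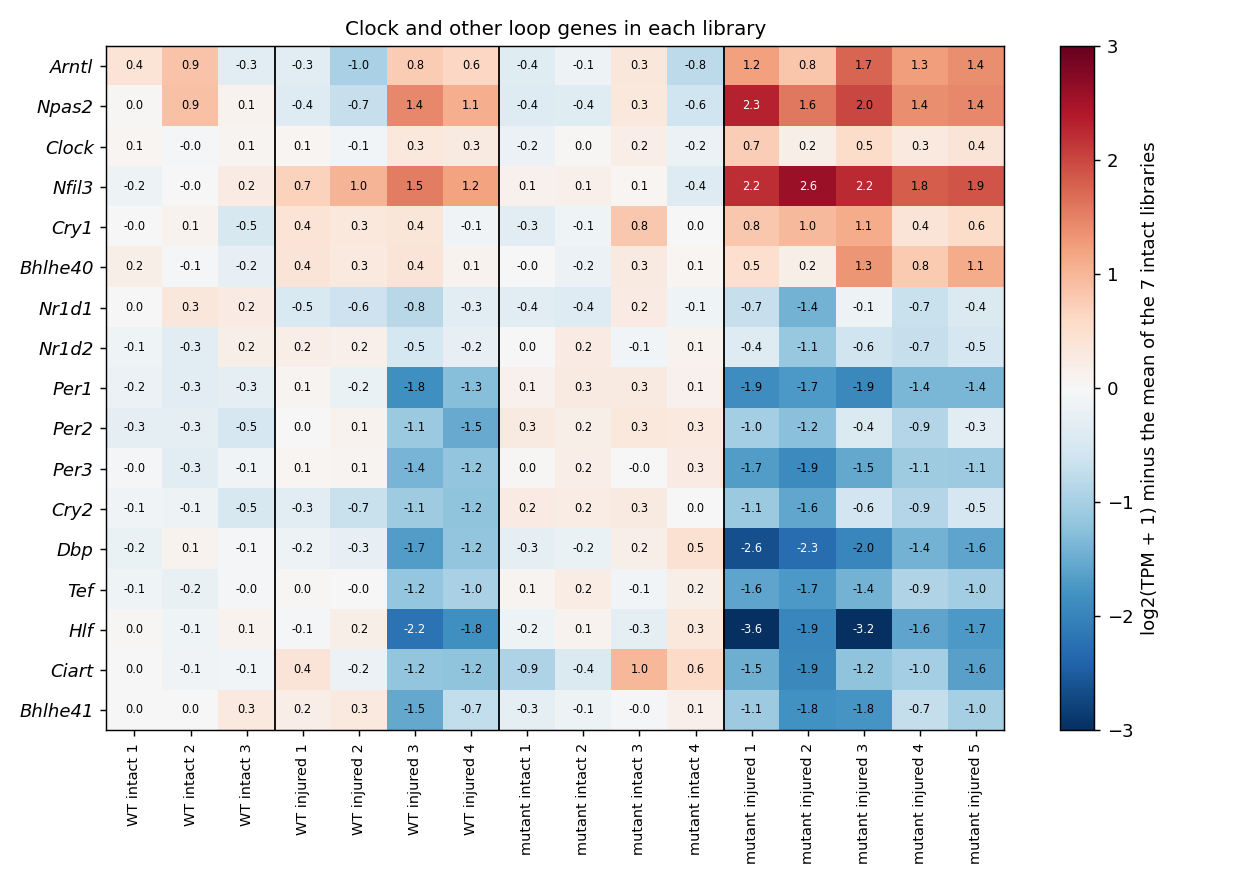
Clock and other loop genes (rows) in the 16 libraries (columns, grouped by genotype and treatment); colours and numbers give log2(TPM + 1) minus the mean of the 7 intact libraries, with colours saturating at 3 in either direction. Per1 stands between -1.9 and -1.4 in the 5 injured mutant libraries, at -1.8 and -1.3 in injured wild-type mice 3 and 4, and at 0.1 and -0.2 in mice 1 and 2.

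Whether the injury responses differed between genotypes was tested as an interaction. By limma 0 of the 10 members passed (0.00% of all tested genes), and 5 had an unadjusted p under 0.05 (Arntl, Per1, Per3, Nr1d2 and Dbp), against 8.18% of all tested genes. The largest was that of Arntl, a difference between the injury changes of 1.84 ± 0.53 (SE, adjusted p 0.488 by limma), mutant minus wild type, with a 95% interval of 0.71 to 2.96. Per1 differed by -1.32 ± 0.45 (SE, adjusted p 0.506 by limma) and Dbp by -1.24 ± 0.47 (SE, adjusted p 0.531 by limma). A difference of the injury response between genotypes is therefore not shown for any member, and these intervals do not show that the responses were alike.

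In intact discs 0 members were called between genotypes, as were 0.0165% of all tested genes, and 0 had an unadjusted p under 0.05, against 3.78% of all tested genes. The Per genes and Cry2 nonetheless lay higher in every intact mutant than in every intact wild-type mouse. The ranges were 348 to 385 against 249.7 to 282 TPM for Per1, 97.4 to 108 against 60.4 to 70.1 TPM for Per2, 111 to 134 against 88.9 to 109.5 TPM for Per3 and 184 to 218 against 129.9 to 168 TPM for Cry2. Of all tested genes 2.77% were higher in mutants without overlap. These 4 genes are driven by the same loop and are not independent observations. The differences were 0.47 ± 0.34 for Per1, 0.62 ± 0.33 for Per2, 0.28 ± 0.32 for Per3 and 0.43 ± 0.24 for Cry2 (SE, adjusted p 1 by limma for each). Arntl differed by -0.56 ± 0.40 and Dbp by 0.08 ± 0.35, both again at an adjusted p of 1 by limma, and the intact libraries of the genotypes share no run of library numbers.

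In injured discs 0 members were called between genotypes by limma (0.918% of all tested genes), and 7 had an unadjusted p under 0.05, against 20.3% of all tested genes. Arntl was higher in every injured mutant mouse, at 25.5 to 48.8 TPM, than in every injured wild-type mouse, at 6.50 to 24.2 TPM, a difference of 1.28 ± 0.35 (SE, adjusted p 0.0781 by limma). It was the one member whose groups did not overlap, and 0.905% of all tested genes were higher in mutants without overlap. Dbp differed by -1.16 ± 0.31 (SE, adjusted p 0.0755 by limma), with injured wild-type mouse 3 within the mutant range and mice 1, 2 and 4 above it. Without injured wild-type mouse 3, 5 members (Arntl higher, Per1, Per3, Nr1d2 and Dbp lower) and 2253 of all tested genes were called. Without injured mutant mouse 4, 1 member (Dbp) and 597 of all tested genes were called, against 222 of all tested genes with all mice. Among the other loop genes Nfil3 was called, higher in injured mutants by 1.04 ± 0.19 (SE, adjusted p 0.0287 by limma), with 33.2 to 57.9 TPM against 14.9 to 27.1 TPM in the wild type. Injured libraries of the genotypes share no run of library numbers, so genotype and run cannot be told apart here, nor in the interaction.

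The genes whose pattern was most like that of Arntl and Dbp were sought after the mean of each group had been taken off, so that only differences between mice of a group remained. Pearson correlations over the 16 libraries were ranked among the 11935 genes that average 5 TPM or more and have a gene symbol other than a Gm, Rik or identifier name. They are descriptions, over libraries that share their processing and fall into 4 groups, and carry no test. The split of the injured wild-type mice remains in them, with Dbp at 121 and 114 TPM in mice 1 and 2. In mice 3 and 4 Dbp lay at 42.0 and 58.9 TPM. This split goes with the runs of library numbers and the macrophage sums, and its weight in the correlations was not tested. Among the genes most like Dbp were Pknox2 (0.95), Cdsn (0.95), Rnf216 (0.93), Daam2 (0.93) and Aldoc (0.93), and among those most opposite were Kif5b (-0.93), Cdkn1a (-0.93), Cab39 (-0.93) and Ppp1r15b (-0.93). Among the genes most like Arntl were Usp35 (0.93), Dapk1 (0.93), Sfn (0.92) and Cast (0.90), and among those most opposite were Tmem175 (-0.93), Nicn1 (-0.92), Kbtbd7 (-0.90), Cyb5d2 (-0.89) and Dhx40 (-0.88). Loop genes had the following values. With Dbp, Tef stood at 0.86, Per3 at 0.86, Hlf at 0.83, Per1 at 0.82, Bhlhe41 at 0.79, Per2 at 0.73, Ciart at 0.72, Cry2 at 0.59, Nr1d2 at 0.44, Nr1d1 at 0.37, Bhlhe40 at 0.36, Cry1 at 0.04, Rora at -0.17, Arntl at -0.44, Clock at -0.55, Npas2 at -0.72 and Nfil3 at -0.78. With Arntl, Npas2 stood at 0.84, Clock at 0.61, Bhlhe40 at 0.36, Nr1d1 at 0.36, Cry1 at 0.28, Nfil3 at 0.25, Cry2 at 0.05, Rora at -0.01, Ciart at -0.22, Per2 at -0.39, Nr1d2 at -0.50, Tef at -0.59, Per1 at -0.60, Per3 at -0.61, Bhlhe41 at -0.61 and Hlf at -0.68.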

How the data were processed

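The values are TPM, in a single table that the authors deposited with a column for each mouse. Each column sums to 1000000 over 49315 genes, and all 16 columns were used. Per the submitters' processing notes, bcl2fastq 2.20 and GRCm38 were used. The aligner, the counting method and the annotation are not given in the sources used here. Per the labels' protocols ribosomal RNA was depleted, whereas the labels' molecule field gives polyA RNA. Members and lists were chosen with earlier results of these data known. Genes that reached 1 TPM in 3 or more libraries were tested with limma 3.58.1 in R 4.3.3 (lmFit, eBayes with a trend) on log2(TPM + 1), with a mean per group over all 16 libraries and Benjamini-Hochberg adjustment over 24188 genes. The code was tested on simulated data. All members are named. Of the lists of clock and glucocorticoid-induced genes, those called and up to 3 others are named, and cell type markers are mostly given as counts and sums. A few genes are not reported here. Groups share mouse numbers, but same-numbered libraries are different mice: of 21 same-numbered pairs 1 had deviations that correlated above 0.1. Positions came from GENCODE M21 (99.3% of identifiers found). Dividing TPM by what 1 read is worth put 94.0% to 95.0% of low values within 0.05 of a whole number. These implied reads are approximations, so no counting interval was made. Nothing states whether mice shared litters or cages.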

Additional observations from a re-analysis of the deposited data

Results flagged for a closer look

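Of 30 sets of values examined (10 members in the 3 groups of 4 or 5 mice), 1 had a mouse far from the others, and chance gives about 1 in 20 such sets. Cry2 in intact mutant mouse 4 lay at 184 TPM, while the other 3 intact mutant mice lay between 213 and 218 TPM. The 4 values span a narrow range, and all lie above every other library of the study for this gene.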

How the results depend on the processing

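Injury in mutants gave 9 members with another pseudocount (0.1), no filter, a mean of at least 5 TPM, median-of-ratios scaling, quantile normalization, sample weights and the muscle score as covariate, 8 with only the groups compared, 1 with the M mutants alone and 5 with the A8 mutants alone (the last added after the data were seen). Leaving out single mice gave 8 to 9. With the replicate block the count was 9 for injury in mutants and 0 in each other comparison, so the pairing changed no count of members. Genotype in injured discs gave 3 members with sample weights, where 1070 of all tested genes were called, and 0 to 5 when single mice were left out. The other 3 comparisons gave 0 under every alternative that could be fitted, and the interaction cannot be fitted with only the groups compared.

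Calls among all tested genes ranged from 725 (M mutants alone) to 8559 (sample weights) for injury in mutants, against 7438 as reported. They ranged from 2 to 2253 (A8 mutants alone, without injured wild-type mouse 3) for genotype in injured discs, against 222, from 2 to 452 (without intact mouse 1, without injured mouse 1) for injury in the wild type, against 28, from 1 to 8 for genotype in intact discs, against 4, and from 0 to 15 for the interaction.

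The changes of members that turned sign were not called in the report. Between injured genotypes, Cry2 was 0.0035 and Nr1d1 0.0049 with median-of-ratios scaling, and with the M mutants alone Per2 was 0.092, Cry2 0.17 and Nr1d1 0.15. Leaving out single mice gave -0.44 to 0.099 for Per2, -0.23 to 0.053 for Cry2 and -0.24 to 0.083 for Nr1d1. Injury in the wild type gave Nr1d2 0.093 with sample weights, 0.0077 with the replicate block, 0.10 with the muscle score and -0.13 to 0.14 without single mice, where Arntl ranged over -0.62 to 0.032 and Per2 over -0.51 to 0.023. Between intact genotypes, Cry1 was -0.10 and Dbp -0.20 with the A8 mutants alone, and -0.017 to 0.36 and -0.054 to 0.19 without single mice. The interaction of Cry1 was -0.11 with the M mutants alone. Depth limits Arntl and Cry1 most, with as few as 132 and 133 implied reads.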

Other observations

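Among intact mutants, whose libraries carry the prefixes A8 (mice 1 and 2) and M (mice 3 and 4), Ciart lay at 17.2, 24.2, 66.9 and 49.9 TPM in mice 1 to 4, with both M libraries above both A8 libraries, and at 33.3, 30.9 and 31.2 TPM in intact wild-type mice. Dusp1, from the list of glucocorticoid-induced genes, showed the reverse order, at 429, 349, 165 and 142 TPM in intact mutant mice 1 to 4, and lay at 314, 114 and 119 TPM in intact wild-type mice 1 to 3. These splits within the intact groups were not tested.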
